A study of Rattus norvegicus with 6 samples.

Results

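The substantia nigra pars compacta of 3 control rats that received solvent alone was profiled on 3 one-colour microarrays, 1 per rat, out of 6 arrays in the study. The arrays were taken by their label, solvent, and carry the rat numbers 11, 7 and 1, in which order values are given throughout. All 33849 gene probes of each array were kept, and each was ranked within its own array by net signal and by the scanner's quality flag.

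The animals were adult male Sprague Dawley rats, 5 months old. Each carried an osmotic minipump under the skin that delivered, for 28 days, a mixture of dimethylsulfoxide and polyethylene glycol in equal parts with Pluronic F-127, a non-ionic surfactant. Every rat was anaesthetised with ketamine and xylazine for the implantation. The arrays therefore describe nigra after surgery, anaesthesia and a month of solvent, and no untreated nigra is among the samples. The other 3 arrays, from rats given rotenone in the same solvent, do not enter the values below. The pars compacta was cut out by laser capture, 2 µg of its RNA was amplified in 1 tube per rat, and 10 µg of the biotin-labelled product was fragmented for the array. With 1 array per rat, the differences between animals, captures, amplifications and hybridisations cannot be told apart, and no comparison between groups was made.

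The pars compacta is the midbrain nucleus whose dopamine neurons send axons to the striatum and support movement and reward learning. Dopamine is made from tyrosine in 2 steps, by tyrosine hydroxylase (Th) and then aromatic amino acid decarboxylase (Ddc). The vesicular transporter Slc18a2 loads it into vesicles, and the plasma membrane transporter Slc6a3 takes it back up after release. These neurons are surrounded by astrocytes, myelinating oligodendrocytes, microglia, capillaries and scattered GABA neurons, all of which add RNA to a captured piece of tissue.

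Signals are given as scaled intensity, the spot's mean minus its local background, divided by a constant of the array so that the median probe lies at about 1. The percentile of a probe is its position among all 33849 probes of the same array. A probe's signal depends on its sequence as well as on the RNA, so percentiles are positions on the array and not an order of RNA amounts between genes. A probe is called above background on an array when the scanner marked it neither as near background nor as masked. Where a gene had several probes, the one with the highest mean percentile stands for it, which places such genes high. Members called the first or brightest of a list are so by median percentile over the rats.

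The 3 arrays were alike in range. Median net signals were 14.6, 16 and 16.6 intensity units, against a 95th percentile of 12.2, 11.9 and 10.9 in negative control spots, and 49%, 51.2% and 51.5% of probes were above background. On all 3 arrays 14281 probes (42.2%) were above background, and on none 13479. The scanner marked 97.9% to 99% of the probes above 100 net units as irregular spots, and this mark was not used as a filter. The 4675 probes that could be named stand for 4013 genes and include 46 of the 100 probes with the highest signal, so the account below covers a minority of the array. Of the named genes 1970 genes (49.1%) were above background on all 3 arrays and 1355 (33.8%) on none, 12 of these with a masked spot. Log2 signals of the 14281 probes correlated across probes at r = 0.95 between rats 11 and 7, 0.939 between rats 11 and 1, and 0.942 between rats 7 and 1. The synthetic transcripts added before amplification did not come out equal: all 30 spike probes were highest in rat 7 and lowest in rat 1, with a median ratio of 2.03 between rats, while the 8 spots of a probe on 1 array differed by a median SD of 0.12 on the log2 scale. The scanner file of rat 7 carries another header date than those of rats 11 and 1.

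The dopamine neuron markers sat at the very top of every array. Th, the rate-limiting enzyme of dopamine synthesis, gave scaled intensities of 386, 467 and 460 in rats 11, 7 and 1, a mean of 437 ± 45 (SD, n = 3). Slc6a3, the dopamine transporter, gave 422, 431 and 445, a mean of 433 ± 11.9 (SD, n = 3). Both were even across the rats, with a highest over lowest ratio of 1.21 for Th and 1.06 for Slc6a3. Ddc gave 436, 714 and 437, a mean of 529 ± 160 (SD, n = 3), so that rats 11 and 1 were alike and rat 7 stood 1.64-fold above the lowest. Cck, the peptide cholecystokinin that many nigral dopamine neurons release together with dopamine, gave 449, 344 and 276, a mean of 356 ± 87.2 (SD, n = 3), highest in rat 11 and lowest in rat 1. Gap43, a growth-associated protein of axons, gave 297, 238 and 231, a mean of 255 ± 36.3 (SD, n = 3), with rat 11 highest and the others close together. The median percentiles were 99.89 for Th, 99.88 for Ddc, 99.87 for Slc6a3, 99.78 for Cck and 99.6 for Gap43. All 5 markers chosen for the labelled tissue were thus bright in each of the 3 rats. Gap43 is also on the list of genes common to all neurons and is not particular to dopamine neurons. Th ranked 68th, 39th and 37th of 33849 probes in the 3 rats, counting from the brightest.

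**Figure D1:**
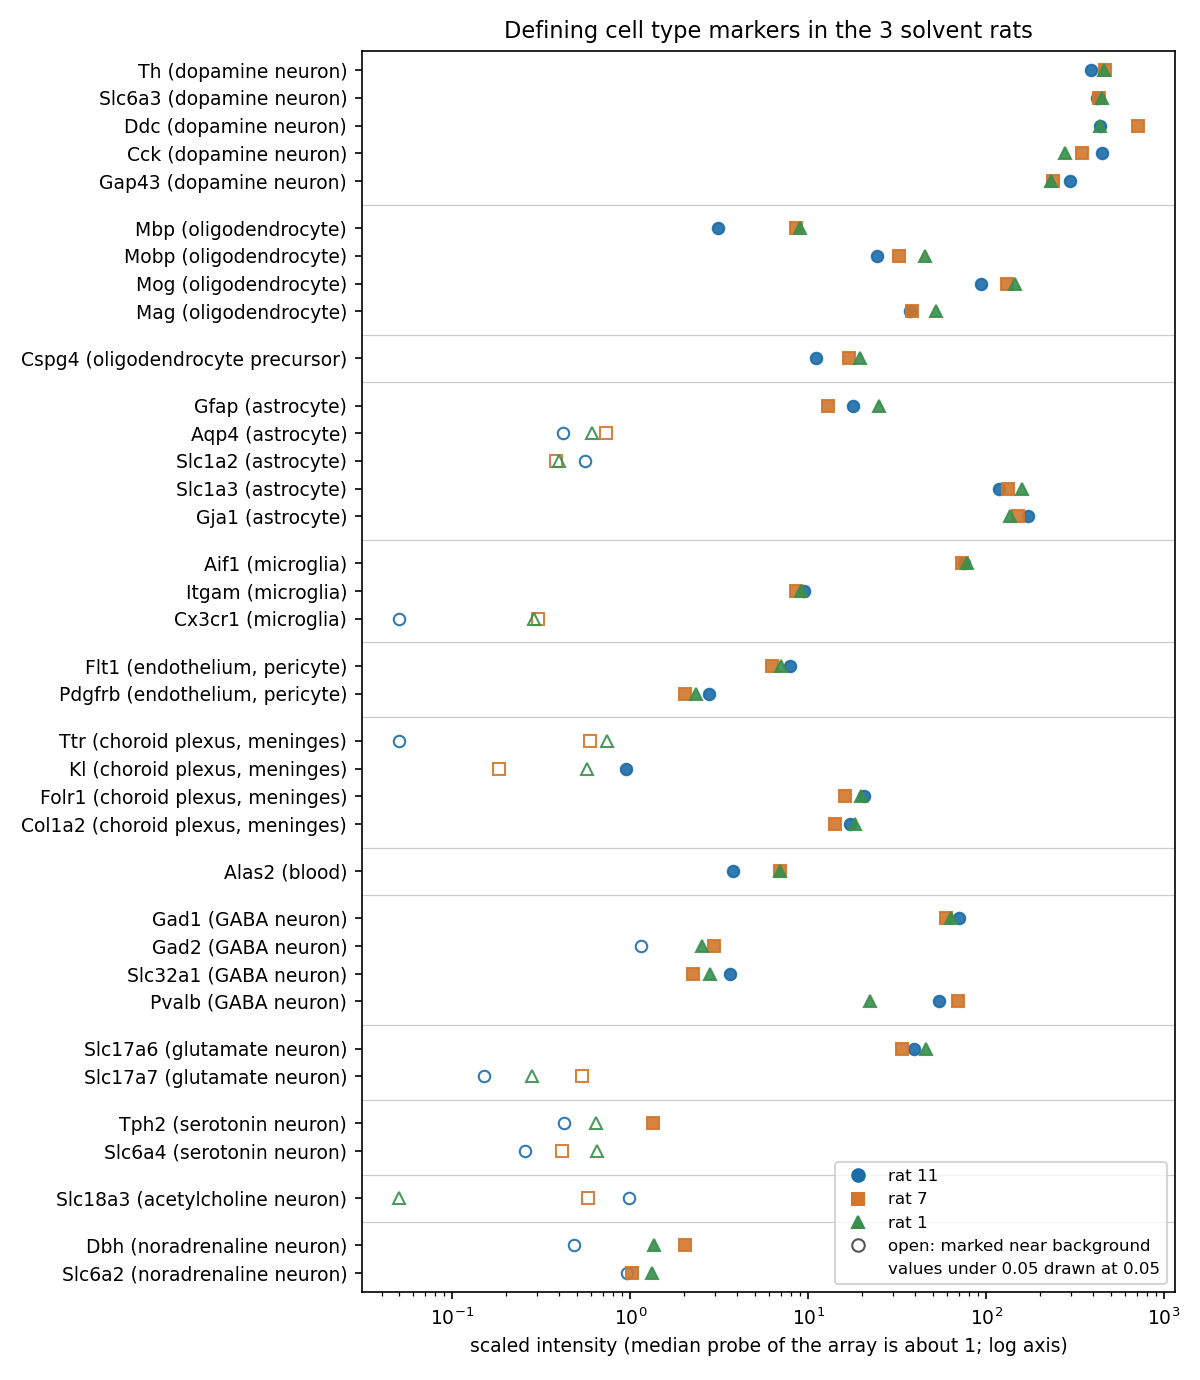
Scaled intensity (log axis, median probe at about 1) of defining cell type markers that the array names, 1 symbol per solvent rat, open where the scanner marked the probe as near background; values under 0.05 are drawn at 0.05. The 5 markers grouped under dopamine neurons, of which Gap43 is common to all neurons, lie between 231 and 714 in all 3 rats. Slc6a4 of serotonin neurons, Slc18a3 of acetylcholine neurons and Ttr of the choroid plexus lie below 1. Folr1 and Col1a2, grouped with Ttr under choroid plexus and meninges, lie between 14.2 and 20.7.

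The sequences just upstream of the start of Th and Slc6a3, and of Ppia, the brightest named gene, are shown because these genes stand for the dopamine identity and for the top of the array. Each run covers the 150 bases before the gene's start, 5′ to 3′ on the gene's own strand, from RefSeq on assembly GRCr8: chr1:207508219-207508368 on the minus strand for Th, chr1:31578963-31579112 on the minus strand for Slc6a3 and chr14:85493066-85493215 on the plus strand for Ppia. Capitals mark exact matches, on either strand, to 4 promoter motifs: TATAAA is the TATA box, CCAAT is the box bound by factor NF-Y, GGGCGG is the GC box bound by the Sp1 family, and TGACGTCA is the cyclic AMP response element. A GC box on the opposite strand reads CCGCCC here.
Th: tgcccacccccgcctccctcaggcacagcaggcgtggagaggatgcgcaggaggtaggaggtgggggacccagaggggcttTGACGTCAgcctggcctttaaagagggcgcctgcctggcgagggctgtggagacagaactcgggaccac
Slc6a3: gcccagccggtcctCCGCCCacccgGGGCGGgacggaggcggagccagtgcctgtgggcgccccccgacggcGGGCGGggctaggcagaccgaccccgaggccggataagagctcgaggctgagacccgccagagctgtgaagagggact
Ppia: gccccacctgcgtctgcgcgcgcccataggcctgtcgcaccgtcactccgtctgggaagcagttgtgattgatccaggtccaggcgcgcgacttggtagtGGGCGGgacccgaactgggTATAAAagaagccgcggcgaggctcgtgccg
The Th window holds TGACGTCA 69 bases before the start and none of the other motifs. Slc6a3 holds 3 GC boxes, 136, 125 and 78 bases before the start, and no TATAAA. Ppia holds a GC box at 50 and TATAAA at 31 bases before the start.

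Over windows from 250 bases before to 50 bases after the start, each motif counted on its own and on both strands, the GC box was in a larger share of the windows of named genes in the top decile than of those above background on no array. GGGCGG was in 67.4% of 574 windows of 533 genes whose median percentile was 90 or more, in 41.4% of 1125 windows of 1071 genes above background on no array, in 52.8% of the windows of all named genes and in 33.1% of all 33469 windows. TATAAA was in 9.06%, 14.5%, 11.8% and 14.2% of the same sets. CCAAT was in 38.0%, 37.2%, 37.6% and 37.5%, and TGACGTCA in 2.44%, 1.87%, 2.09% and 1.83%. The median GC content was 61.3% in the top decile, 55.7% in those above background on no array and 51.7% over all windows, and the GC box itself consists of G and C. The 30 brightest named genes, of which 23 had 27 windows, did not follow the top decile: 48.1% held GGGCGG, 14.8% TATAAA and 18.5% CCAAT. These shares describe letters in a window, with no test.

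Several other genes of the dopamine neuron were bright too. Of 25 named genes on this list, the 5 markers included, 19 (76%) were above background on all 3 arrays, against 49.1% of all named genes. In the top decile of probes (median percentile of 90 or more) were 12 (48%), against 16.3% of all named genes. The median percentile was 81.4 against 56.3 for all named genes. All 5 markers are among both the 19 and the 12, so these figures are not those of the other genes alone. The markers and the list were chosen with earlier results of these data known. These shares of 49.1% and 16.3% are the ones to set beside the counts of each list below. Qdpr, which regenerates the tetrahydrobiopterin that Th needs, gave 357, 286 and 278, and Pts, an enzyme of tetrahydrobiopterin synthesis, gave 82.0, 69.9 and 78.6. Slc18a2, the vesicular transporter, gave 41.3, 50.2 and 55.0, and Drd2, the receptor through which dopamine neurons sense their own release, gave 75.8, 115 and 118. Both were lowest in rat 11. The receptors for the GDNF family of survival factors were measured as well: Gfra1, the binding subunit, gave 45.3, 40.6 and 42.2, and Ret, the signalling subunit, gave 34.2, 25.3 and 28.6. Their other probes were lower, at 15.3, 11.8 and 11.9 and at 0.555, 0.36 and 0.851 for Gfra1 and at 1.07, 1.5 and 1.05 for Ret. Sncg, gamma-synuclein, gave 153, 142 and 132. These rats differed little in Gfra1 and Sncg, and rat 11 was highest in both and in Ret.

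The transcription factors of dopamine identity lay lower on the arrays. Nr4a2 (Nurr1) gave 6.42, 7.66 and 8.63, at percentile 78.7. Pitx3 gave 1.04, 1.02 and 1.01, at percentile 50.4, and was above background on each array. Foxa2 was above background on 2 of 3 arrays, and its relative Foxa1 on none. Genes near background on all 3 arrays also included Kcnj6 (the potassium channel GIRK2), Gch1 (an enzyme of cofactor synthesis) and Chrnb3 (a nicotinic receptor subunit). A mark near background is a statement about 1 probe. Slc6a3 itself has a second probe that was near background in all 3 rats, at 0.629, 0.319 and 0.112, and with the mean over both probes its median percentile was 60.7 in place of 99.9. Gap43 has a second probe that was bright, at 183, 172 and 93.7.

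Genes of GABA neurons were present beside the dopamine markers. Of 14 named genes, 12 (85.7%) were above background on all 3 arrays, and 6 (42.9%) were in the top decile, against 49.1% and 16.3% of all named genes. Gad1, the enzyme that makes GABA, gave 70, 59.8 and 63.2, nearly level across the rats. Calb2 (calretinin) was level as well, at 81.3, 78.6 and 73.5, while Pvalb (parvalbumin) gave 54.1, 69.6 and 22.2, with rat 1 well below the other rats. Slc32a1, the vesicular GABA transporter, was lower on the array, at 3.62, 2.26 and 2.82, and Gad2 was above background in rats 7 and 1 only. Drd1, the receptor of striatal neurons that project to the nigra, was near background in all 3 rats, whereas Tac1 and Penk, peptide precursors known from striatal neurons, gave 28.6, 35.1 and 33.3 and 30.5, 30.6 and 22.4.

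Of the glutamate neuron list, 1 of 7 genes (14.3%) was above background on all 3 arrays, against 49.1% of all named genes. That gene was Slc17a6, the vesicular glutamate transporter of midbrain and thalamus, which gave 39.3, 33.6 and 45.9. Slc17a7, the transporter of cortical neurons, Slc17a8 and Neurod2 were near background on all 3 arrays. Of 9 genes for serotonin, acetylcholine and noradrenaline neurons 2 (22.2%) were above background on all 3 arrays, and none was in the top decile. These were Phox2a, a transcription factor of noradrenaline neurons (5.08, 4.48 and 4.04), and Fev, one of serotonin neurons (2.24, 2.89 and 3.16). Slc6a4 and Slc18a3, the serotonin and the vesicular acetylcholine transporter, were near background on all 3 arrays, Tph2 was above it in rat 7 only, and Dbh and Slc6a2 of noradrenaline neurons were above it in rats 7 and 1, at values of 2.02 or less. Among the 15 genes common to all neurons 13 (86.7%) were above background on all 3 arrays, led by Gap43, Ina (85.6, 66.4 and 104), Syp (92.7, 82.7 and 67.9) and Stmn2 (54.8, 54.4 and 31.6). Snap25 and Thy1, abundant neuronal genes, were near background on all 3 arrays.

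Astrocyte genes lay high on the arrays. The list of 19 had a median percentile of 92.3, with 14 genes (73.7%) above background on all 3 arrays and 10 (52.6%) in the top decile. Sparcl1, a secreted matrix protein of astrocytes that neurons also express, gave 991, 1056 and 793. Glul (glutamine synthetase) gave 335, 281 and 335, and Aldoc gave 226, 282 and 204. Among the defining markers, Gja1 (connexin 43) gave 172, 151 and 136 and the glutamate transporter Slc1a3 gave 118, 133 and 159, running in opposite order over the rats. Of the other Gja1 probes, 1 gave 65.7, 70.6 and 52.9 and 1 was above background on no array (-0.0423, 0.381 and 0.046). Gfap, the filament protein that rises in reactive astrocytes, gave 17.8, 12.9 and 24.9, highest in rat 1. Aqp4, Slc1a2 and Ntsr2 were near background on all 3 arrays, and for Slc1a2 this held for both of its probes.

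Of 19 oligodendrocyte genes 16 (84.2%) were above background on all 3 arrays, and none was near background on all 3. Bright members included Mog (94.0, 131 and 146), Mal (76.1, 70.3 and 78.7) and Mag (37.5, 38.5 and 52.5), all of them components of myelin, with Qdpr, which is shared with the dopamine list, above them. Each of these 3 was highest in rat 1. Cspg4, the 1 named marker of oligodendrocyte precursors and pericytes, gave 11, 16.9 and 19.6. Microglial genes were above background on all 3 arrays for 8 of 11 (72.7%): Aif1 gave 75.3, 72.8 and 78.5, and C1qb, a complement subunit, gave 24.8, 30.6 and 25.6, both level over the rats. Not all of the 8 were level: 3 spanned over 2-fold, Cd74 (2.6, 16.2 and 14.4), Cd14 (7.48, 1.98 and 7.45) and Ctss (4.83, 6.96 and 2.64). Cx3cr1 and Lyz2 were near background on all 3 arrays.

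Vessel markers were measured at a moderate level. Of 11 genes of endothelium and pericytes 10 (90.9%) were above background on all 3 arrays, against 49.1% of all named genes. In the top decile was 1 (9.09%, against 16.3%): Slc2a1, the glucose transporter of the blood-brain barrier, at 26.5, 28.0 and 35.3. Flt1 gave 7.89, 6.25 and 7, while its other probe was above background on no array (0.471, 0.395 and -0.0212). The probe that stands for Kdr was masked on all 3 arrays. The other Kdr probes were above background on no array, at 0.477, 0.431 and 0.343 and at 0.483, 0.08 and 0.21. In the list of choroid plexus, ependyma and meninges 6 of 18 genes (33.3%) were above background on all 3 arrays. Above it on none were 8, among them Ttr, the most abundant product of the choroid plexus, at -0.136, 0.593 and 0.744. Other defining markers of this list were above background in every rat: Folr1 gave 20.7, 16.1 and 19.9, and Col1a2 gave 17.1, 14.2 and 18.2. Kl was above it in rat 11 only. The list's top-decile members were Ptgds, which oligodendrocytes also make, at 77.4, 197 and 165, and Igf2, a product of meninges and vessels, at 23.9, 73.4 and 88.4. Both were lowest in rat 11 by a wide margin. Of 5 blood genes 3 were above background on all 3 arrays, with Alas2, the haem enzyme of red cells, at 3.79, 6.94 and 6.98.

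Liver genes and those of testis, gut and pancreas lay low on these arrays, and muscle and heart genes near the named genes as a whole. Above background on no array were 10 of 15 liver genes, 10 of 21 genes of testis, gut and pancreas and 4 of 11 of muscle and heart, with median percentiles of 34.1, 36.6 and 54.9, against 33.8% and 56.3 for all named genes. The 1 top-decile gene of these 3 lists was Cck, which the gut also makes. Lhb, the luteinising hormone subunit, gave a clear signal of 25.3, 17.8 and 19.9, while Prl, Avp and Crh were near background on all 3 arrays. Low positions also marked the odorant, pheromone and trace amine receptors: 4 of 27 were above background on all 3 arrays, and their median percentile was 27.6.

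**Figure D2:**
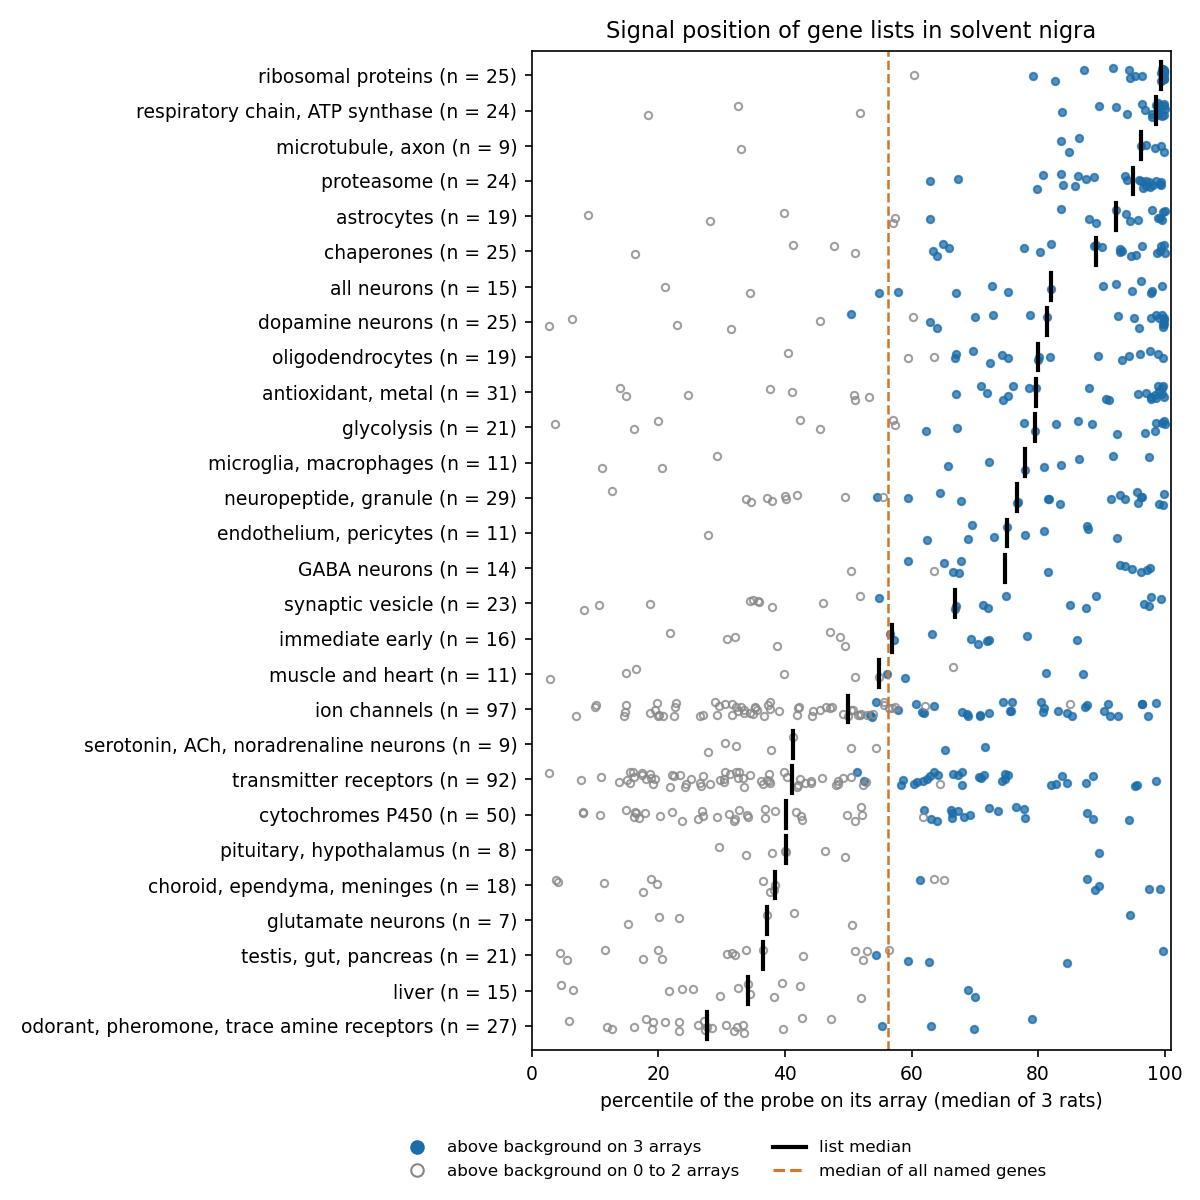
Percentile of each named gene among all probes of its array (horizontal axis, median of the 3 solvent rats) for 28 gene lists, ordered by list median (black bar), with filled points for genes above background on all 3 arrays and open points for the others. List medians run from 27.6 for odorant, pheromone and trace amine receptors to 99.5 for ribosomal proteins, and the dashed line marks 56.3, the median of all named genes.

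The brightest 30 named genes, taken by their lowest percentile over the rats, all lay above percentile 99.76 in every rat and had scaled intensities between 310 and 1557. Ppia, cyclophilin A, a folding enzyme of the cytosol, gave 1116, 1214 and 1557 and ranked 2nd, 2nd and 1st, its spot in rat 1 being marked as contaminated. Next came Sparcl1, then Pebp1, a kinase inhibitor and precursor of a hippocampal peptide, at 772, 798 and 713, and Cox5b, a subunit of cytochrome oxidase, at 935, 855 and 691. Gapdh gave 725, 1002 and 895. The other probes of Ppia, at 645, 400 and 408, and of Pebp1, at 28.7, 36.3 and 27.7, were lower. For Ppia that probe was highest in rat 11. Second probes were lower also for Hspe1 (302, 168 and 159), Ldhb (109, 103 and 69) and Snrpn (106, 84.8 and 62.6). Among the 30 were 6 ribosomal proteins, 4 subunits of the respiratory chain or ATP synthase, and 3 dopamine markers, Ddc, Slc6a3 and Th. Others with known neuronal roles were Pcp4, a calmodulin binder (836, 635 and 681), Atp1b1 of the sodium pump (564, 658 and 602), Cpe, which processes peptide hormones (545, 426 and 395), and the imprinted genes Nnat (404, 550 and 578) and Snrpn (412, 404 and 364). The 30 differed little between rats, with ratios from 1.05 for Rps27 and Tpt1 to 1.64 for Ddc and a median of 1.26. All probes from percentile 99 upwards had a median ratio of 1.3.

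Ribosomal proteins and the respiratory chain held the highest list medians. Ribosomal proteins had a median percentile of 99.5, with 24 of 25 above background on all 3 arrays and 21 in the top decile. Rps29 gave 631, 681 and 853, and Rps3a gave 604, 614 and 573. For the respiratory chain and ATP synthase the median was 98.7, with 19 of 24 in the top decile, for example Atp5pf (839, 630 and 609) and Ndufa5 of complex I (468, 497 and 414). All 24 proteasome genes were above background on all 3 arrays, 14 of them in the top decile, among them Psmb7 (206, 195 and 126) and Psmb3 (214, 191 and 150), with a list median of 95. Antioxidant and metal-binding genes included very bright members, such as Gpx4, which detoxifies lipid peroxides (433, 431 and 288), Sod1 (340, 294 and 180), Txn1 (321, 246 and 253) and Park7, mutated in familial Parkinson disease (241, 208 and 160). In 3 of these 4, and not in Txn1, rat 1 was lowest. Of the same 31 genes, 5 were above background on no array. Of 6 genes linked to Parkinson disease 5 were above background on all 3 arrays, among them Mapt, the microtubule protein tau, at 15.3, 26.8 and 14.3.

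Chaperones were bright in part, with 21 of 25 (84%) above background on all 3 arrays, against 49.1% of all named genes. In the top decile were 12 (48%), against 16.3%, with the mitochondrial Hspe1 at 855, 678 and 537 next to Ppia. Glycolysis genes numbered 14 of 21 (66.7%) on all 3 arrays, among them Ldhb (456, 394 and 310). Genes of microtubules and axonal transport had a median percentile of 96.3, led by Dynlrb1, a dynein light chain, at 673, 769 and 718. Synaptic vesicle genes stood lower than these and nearer to the named genes as a whole. Their median percentile was 66.8 against 56.3, with 13 of 23 (56.5%) on all 3 arrays against 49.1%. Sv2a reached 158, 208 and 258, lowest in rat 11 and highest in rat 1, although its other probe gave 0.907, 0.502 and 1.03.

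Ion channels and receptors, which set how a neuron fires, lay in the middle of the arrays or below. Of 97 ion channel genes 34 were above background on all 3 arrays (35.1%), and of 92 transmitter receptors 31 (33.7%), against 49.1% of all named genes. The brightest channels were the potassium channels Kcna2 (99, 107 and 102), Kcnk1 (70.7, 72.3 and 63.4) and Kcnd3 (55.4, 37.6 and 74.8), of which the first pair was level over the rats and Kcnd3 was not. The other Kcnk1 probe was above background on no array (0.618, 0.172 and 0.00855), and the other Kcnd3 probes were above it on 1 array each. Scn3b, a sodium channel subunit, gave 55.4, 38.5 and 54.6. Among receptors Drd2 led, followed by the glutamate receptor subunits Gria2 (53.6, 48.0 and 39.1), Grin2c (42.0, 60.1 and 43.0) and Grik4 (18.8, 11.9 and 22.2). Neuropeptides and their granule proteins were above background for 19 of 29 genes on all 3 arrays, with 10 in the top decile, Cpe and Cck first and Scg5 (149, 139 and 110) and Vgf (55.9, 49.4 and 53.5) after them. Of 50 cytochromes P450 17 (34%) were above background on all 3 arrays and 1 (2%), Cyp51 of cholesterol synthesis, was in the top decile (38.8, 31.0 and 36.7). Activity-induced immediate early genes were low to moderate: none of 16 was in the top decile, and the first were Homer1 (14.8, 14.3 and 16), Dusp1 (8.41, 7.39 and 5.92) and Btg2 (4.87, 3.64 and 5.38). Of 6 glucocorticoid-responsive genes Klf9 (42.8, 31.9 and 46.2) and Sgk1 (41.5, 36.4 and 18.0) were in the top decile, and Sgk1 was lowest in rat 1.

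The 3 rats differed from one another by a median highest over lowest ratio of 1.49 over the 14281 probes above background on all arrays. Of these, 51.0% stayed within 1.5-fold, 2826 (19.8%) spanned over 2-fold and 181 (1.27%) over 4-fold. The spread fell with signal: 31.3% of probes between percentiles 60 and 70 spanned over 2-fold, 14.9% between 80 and 90, 5.44% between 90 and 99, and 2.08% from 99 upwards. The median SD of log2 signal was 0.30 over all of these probes and 0.20 from percentile 99 upwards. Among named genes above background on all arrays 356 of 1970 (18.1%) spanned over 2-fold. In 172 of the 356, rat 1 was the rat farther from the other rats, below them in 139 and above them in 33. Rat 11 was the one apart in 96 and rat 7 in 88. Between only 2 rats fewer probes spanned over 2-fold: 9.87% without rat 11, 10.6% without rat 7 and 7.87% without rat 1. Of the 19 measured dopamine neuron genes 1 spanned over 2-fold, and their median ratio was 1.33. This is close to the median ratio of 1.34 for all probes between percentiles 90 and 99, and 12 of the 25 listed genes were in the top decile.

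In several gene lists 1 rat stood apart from the other rats. The deviation of a rat is the median, over the list's genes above background on all 3 arrays, of its log2 value minus the mean of the other rats; over all 14281 probes it was 0.08, -0.01 and -0.05 in rats 11, 7 and 1, and over the 1970 named genes 0.10, 0.02 and -0.08, with rat 1 lowest in 850 and highest in 566, rat 11 highest in 776 and rat 7 lowest in 644. The oligodendrocyte list deviated by -0.35, -0.07 and 0.46. Rat 1 was highest in 10 and lowest in 3 of the 16 genes, and rat 11 was lowest in 9. Rat 1 differed by 0.53 from rat 11 alone and by 0.16 from rat 7 alone, and rat 11 by -0.18 from rat 7 alone. Mobp gave 24.3, 32.2 and 45.1, Mbp gave 3.12, 8.55 and 8.99, and Sox10, the oligodendrocyte transcription factor, 6.80, 8.66 and 12.6, all 3 in the order of rats 11, 7 and 1. Olig1, another such factor, ran in the reverse order, at 11.5, 9.95 and 7.66. The other Mobp probes did not repeat the order of the one used. They gave 15.8, 11.2 and 30.3 and 5.06, 2.04 and 6.39, highest in rat 1 but lowest in rat 7. The genes common to neurons deviated by 0.11, 0.02 and -0.29, with rat 1 lowest in 9 of 13, and those of dopamine neurons by 0.07, 0.00 and -0.04. More or fewer cells of a type and more or less RNA per cell cannot be told apart in such samples. Astrocyte, microglial and vessel lists stayed between -0.14 and 0.11 in each rat, although 3 of the 8 measured microglial genes spanned over 2-fold.

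Rat 1 was low in most of the proteasome. Its deviation on this list was -0.49, against 0.33 in rat 11 and 0.28 in rat 7, and it was lowest of the 3 in 21 of 24 genes. Psma6 gave 76.9, 91.1 and 38.4 and Psmb1 gave 54.5, 61.1 and 27.7, the last from a spot marked as contaminated. The 3 genes in which rat 1 was not lowest, picked out after their values were seen, were Psmc4 (31.0, 34.6 and 34.4) and the immunoproteasome subunits Psmb8 (14.7, 18.6 and 27.3) and Psmb9 (7.41, 13.9 and 16.7), both highest in rat 1 and lowest in rat 11. Antioxidant genes deviated by 0.28, 0.29 and -0.49, with rat 1 lowest in 16 of 23, and microtubule genes by 0.17, 0.24 and -0.46, with rat 1 lowest in 5 of 8. Rat 1 was also lowest in all 5 measured Parkinson genes. The lists overlap: Park7 is also on the antioxidant list, Mapt on the microtubule list, Uchl1 on the neuronal list and Sncg on the dopamine list. Stmn2 is on both the neuronal and the microtubule list, so these lists are not separate observations. Chaperones, in contrast, had a median deviation of no more than 0.05 in any rat, although their genes were not level. Rat 1 was highest in 9 and lowest in 8 of the 21, and 6 spanned over 2-fold, against 18.1% of named genes. The spike probes, too, were lowest in rat 1, and whether what set the spikes also set these lists was not tested.

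Rat 11 was high in ribosomal proteins and in the respiratory chain and ATP synthase. The former deviated by 0.33, -0.10 and -0.11, with rat 11 highest in 13 of 24, and the latter by 0.39, -0.11 and -0.24, with rat 11 highest in 15 and lowest in 0 of 21. Rat 1 differed from rat 7 alone by -0.09 there. Cox7b gave 173, 91.6 and 109, with rat 11 far above the others. Rps23 gave 41.8, 17.5 and 25.7, again highest in rat 11. Rat 7 was low in immediate early genes, deviating by -0.27 against 0.22 and 0.16, being lowest in 6 of 9 and highest in 0. Egr1 gave 3.98, 2.68 and 5.16, and Nr4a1 gave 2.57, 1.34 and 3.47, lowest in rat 7 both times.

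**Figure D3:**
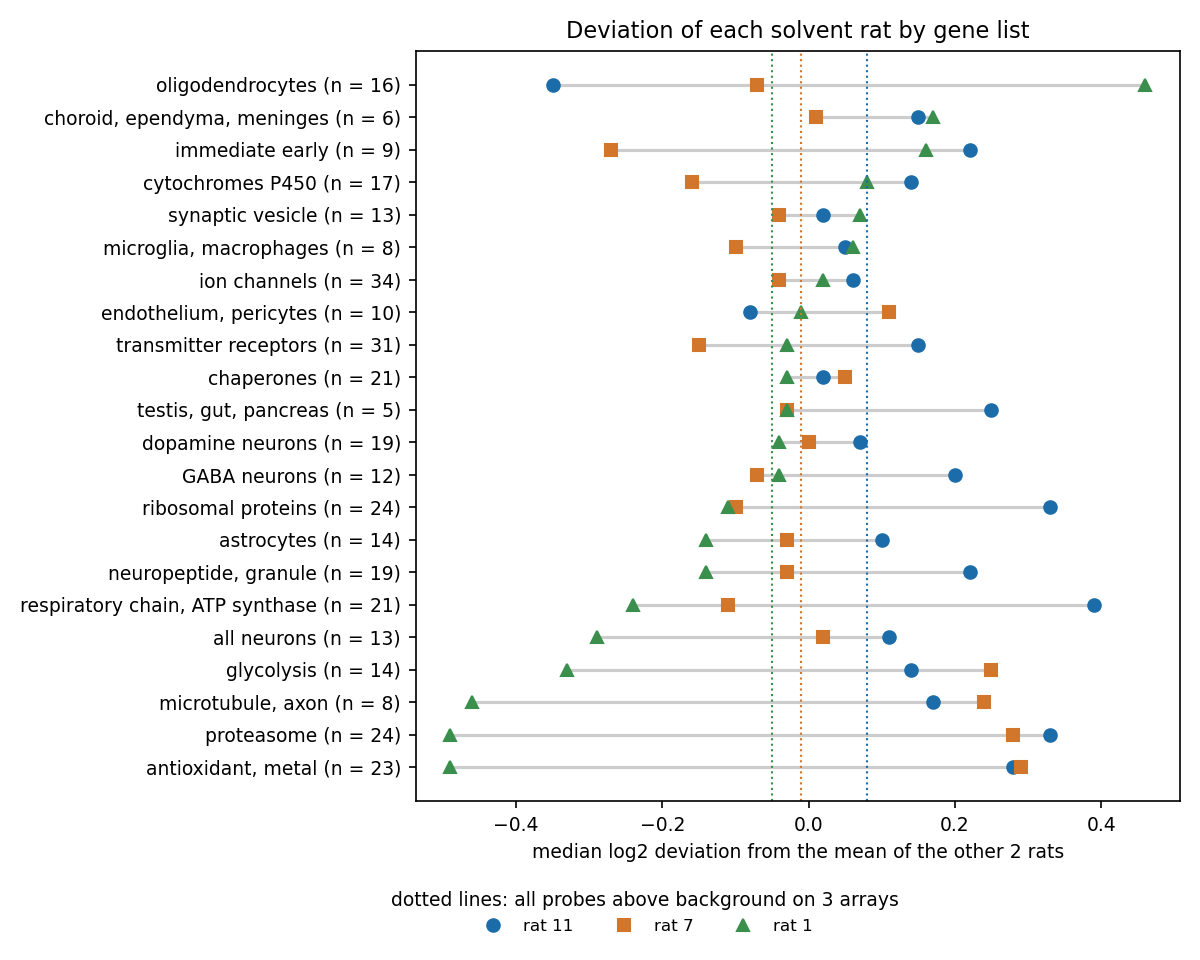
Deviation of each solvent rat (horizontal axis, median log2 difference from the mean of the other rats) for gene lists with at least 5 genes above background on all 3 arrays, n genes each, with dotted lines for all 14281 probes. The Parkinson and glucocorticoid lists, with 5 such genes each and rat 1 at -0.50 and -0.34, are not drawn. Rat 1 reaches 0.46 in oligodendrocyte genes and -0.49 in proteasome and antioxidant genes, while the dopamine neuron list stays between -0.04 and 0.07.

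Rat 1 held the lowest value in most of the bright named genes with a wide range. Of the 10 genes of the top decile with the largest ratio, from 2.57 to 4.75, rat 1 was lowest in 8 and rat 11 in the other two. Slc25a3, the mitochondrial phosphate carrier, gave 22.8, 40.0 and 8.42. Hap1, a huntingtin-associated transport protein, gave 50.8, 48.0 and 14.1, so that rats 11 and 7 were alike and rat 1 was 3.60-fold below the highest. Nrtn (neurturin), a ligand of the Ret receptor, gave 26.1, 53.2 and 16.7, a wider range than Ret or Gfra1 showed. Pvalb, Selenof, Ppp2ca, Rpsa and Id3 also had rat 7 highest and rat 1 lowest. Rpsa, a ribosomal protein, gave 37.8, 59.6 and 23.1. Igf2 and Vim, a filament protein of astrocytes and vessels (18.4, 27.9 and 48.7), were the exceptions, lowest in rat 11 and highest in rat 1.

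Among the dimmer genes the ranges were wider. The 15 named genes with the largest ratios ran from 4.61 to 7.89, and 1 of them, Slc25a3, was in the top decile. Ppp1r17, a phosphatase inhibitor known from Purkinje cells, gave 1.34, 10.5 and 5.68. Cd74, the invariant chain of antigen-presenting cells, gave 2.60, 16.2 and 14.4, low in rat 11 alone, and Cd52, a surface antigen of leukocytes, gave 3.06, 1.15 and 5.51. These immune genes did not share an order over the rats. Tomm20, of the mitochondrial import pore, gave 14.2, 3.96 and 2.48, and Mecr, of mitochondrial fatty acid synthesis, gave 9.05, 4.93 and 1.39, both highest in rat 11 and lowest in rat 1. Apln, the peptide apelin, gave 7.81, 4.16 and 19.2, and Nupr1, a stress-induced nuclear protein, 1.59, 2.61 and 8.26, both highest in rat 1.

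**Figure D4:**
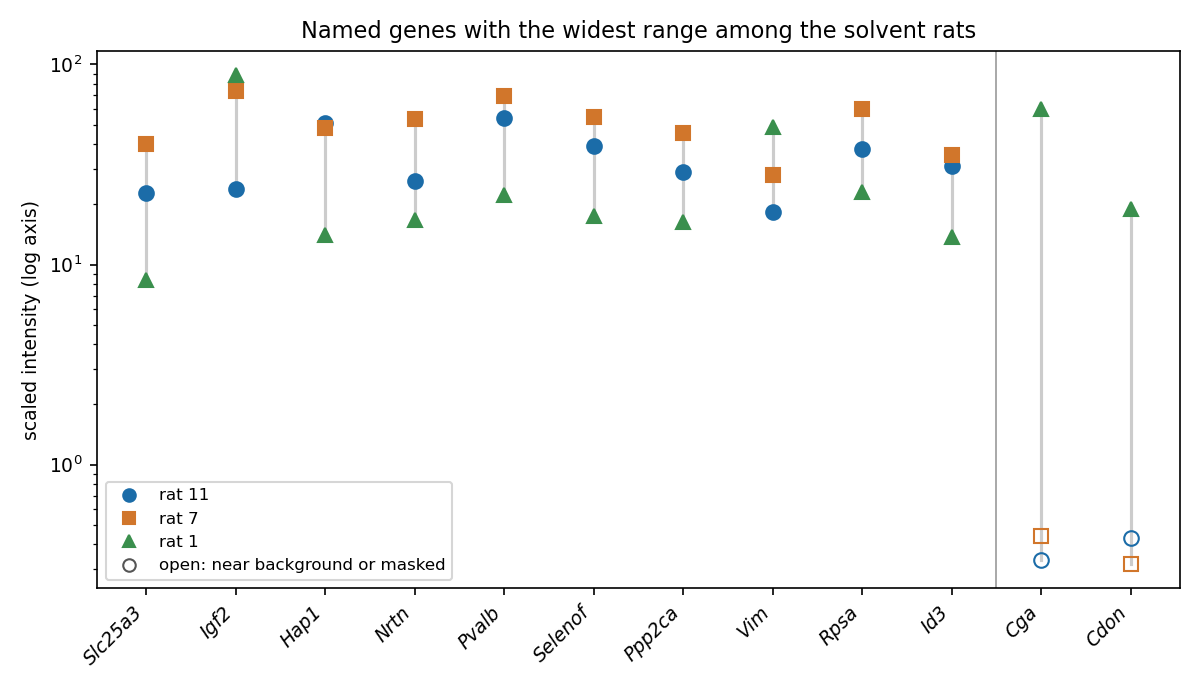
Scaled intensity (log axis) in each solvent rat for the 10 named genes of the top decile with the widest range (left of the line) and for 2 genes above background in rat 1 only (right of the line), open symbols marking probes near background or masked. Rat 1 is lowest in 8 of the 10, and Cga stands at 59.8 in rat 1 against 0.336 and 0.440 in rats 11 and 7.

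Of 388 named genes above background in exactly 1 rat, 4 reached percentile 75 or more there. Cga, the common alpha subunit of the pituitary glycoprotein hormones, gave 0.336, 0.440 and 59.8, at percentiles 22.1, 29.6 and 96.9. Its partner Lhb was above background in all 3 rats and not highest in rat 1. Cdon, a cell surface receptor of muscle and midline development, gave 0.432, 0.319 and 18.9, again in rat 1 only, its spot in rat 11 being masked. Gulo, the vitamin C synthesis enzyme of rodents, reached 8.17 in rat 7, and Sycp3, a protein of meiotic chromosomes, 7.98 in rat 7. Each of these 4 genes has 1 named probe on the array, so no other named probe reads it. Whether an unnamed probe reads any of them was not checked.

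Where a gene had several named probes, the rats' differences recurred in part. There were 631 such genes with 693 probe pairs, of which 178 pairs had both probes above background on all 3 arrays and 182 had 1 above background on all 3 and 1 on none. Over the former, the log2 deviations of the rats correlated between the probes at r = 0.482, a figure across probe pairs that share their array. The percentile positions of a pair differed by a median of 19.6 and by over 20 in 342 pairs.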

How the data were processed

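Per the file headers, the deposited scanner files give linear intensity for each spot: its mean, its background median, their difference (net) and that difference scaled by the authors' software to about the array's median. No source used here names the scanner software. The deposited value table repeats the scaled intensity, with column medians of 0.994, 1.00 and 0.996. Its column for rat 7 equals the scanner file for 0.898% of probes (within 1e-06) because it stands in another row order, so the scanner files were used, and this table served as an alternative. The scale is linear, the centre near 1, and 1-colour values have no direction. The number of arrays limits the precision.

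Probes were named by RefSeq accession through a RefSeq gene table of GRCr8. Values were summarised with pandas 2.3.3 and numpy 2.4.6, alternative normalizations with limma 3.58.1 in R 4.3.3, and figures with matplotlib 3.10.9; the summaries were checked on simulated data. No test was run, since 1 group has no contrast, and p-values are therefore absent.

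The arrays, markers and 32 gene lists (673 genes on the array) were chosen with earlier results of these data known. The patterns of 2 lists (transmitter receptors, respiratory chain) were narrowed after they caught unrelated symbols. Named genes were the 5 markers, the 30 brightest, the 15 most variable and the 10 most variable in the top decile, up to 5 seen on 1 array at percentile 75 or more, and, per list, the 4 brightest and, for cell types, those near background throughout; others from a list, outside this rule, were picked as examples after their values were seen. Alternatives were another background rule, other normalizations, other probe summaries and leaving out each rat. A few such genes are left out of the text.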

Additional observations from a re-analysis of the deposited data

How the results depend on the processing

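Of the values set against other processing, most kept their direction. The share of probes above background on all arrays was 42.2%, 45.8% with the 95th percentile of negative controls as the limit, 49.3% when 2 arrays sufficed and 44.2% to 45.4% without 1 rat. It was 3.56% when irregular and contaminated spots were left out, since that mark covers nearly all bright spots. The median percentile of the dopamine neuron list was 81.4, 74.2 when ranked among named genes, 72.5 with the mean over a gene's probes and 78.6 in the deposited value table, whose column for rat 7 is out of order. The share of probes spanning over 2-fold was 19.8%, 12.8% from percentile 75 upwards, 54.5% with no filter and a floor of 1 on net signal, 3.42% after normexp with an offset of 50, which compresses dim ratios, and 7.87% to 10.6% without 1 rat, where fewer arrays are compared. The small deviation of rat 1 in dopamine genes, -0.04, turned to 0.01 with cyclic loess; the cause was not tested. The deviations of rat 1 in oligodendrocyte, neuronal and proteasome genes and of rat 11 in oligodendrocyte genes kept their sign under every alternative run, including those chosen after seeing the data, which left out a rat or averaged a gene's probes. Against the median of the 3 rats in place of the others they were smaller, 0.12 in rat 1 and -0.08 in rat 11 for oligodendrocyte genes and -0.07 in rat 1 for microtubule genes, by construction 0 for the middle rat. The neuronal deviation of rat 1 was -0.08 after normexp. The ratio of Ppp1r17 was 7.89, and 2.91 after normexp, while that of Slc25a3 went from 4.75 to 3.55. No paired analysis was possible because a single group is described and no comparison between groups was made. Spots near background carry no order between rats.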
